A study of Arabidopsis thaliana with 9 samples.

Results

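Cytochrome P450 genes were followed in cultured Arabidopsis thaliana cells through darkness, growth light and high light. The genes were chosen by name. A probe set, the group of short probes that reads 1 transcript on the array, was kept where the platform annotation lists exactly 1 gene whose symbol is CYP followed by digits, a letter and digits. This gave 22 P450 genes of the 13350 genes that have such a probe set. Each of the 22 had 1 probe set, and all 22 were matched to a locus in RefSeq's gene table (assembly TAIR10.1). Many P450 genes of this species have no named probe set here and were not analysed, so the 22 are no sample of the whole superfamily.

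RNA was measured on 9 Affymetrix ATH1 arrays, in 3 groups of 3 biological replicates. The control group was kept in the growth light of 50 microE/m2/s, the dark group was held in darkness for 1 h, and the high light group was lit at 1800 microE/m2/s for 30 min. The high light and dark groups therefore differ in the length of treatment as well as in light. All cells came from a suspension culture, which has none of the organs of a plant, and the labels name no accession, line or mutant. The labels call the replicates biological and do not say whether they came from separate cultures, so the p-values measure the spread between these arrays. In RNA from a whole culture, fewer cells that use a gene and less of its RNA per cell cannot be told apart.

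Cytochrome P450s are haem enzymes that insert oxygen into small molecules, with electrons that most of them receive from NADPH through a P450 reductase. In plants they make and break down hormones, sterols, phenylpropanoids, terpenoids and defence compounds. In a name such as CYP71B6, the first number is the family, the letter the subfamily and the last number the gene.

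By family the 22 genes were uneven. The CYP71B subfamily held 18 of them, and CYP51G, CYP78A, CYP79A and CYP84A held 1 each. All but CYP51G2 belong to the CYP71 clan, the large plant group of P450 families. By position, 11 of the CYP71B genes form 1 run on chromosome 3, from CYP71B16 to CYP71B37, within a stretch of 25 entries of the gene table. A further 3, CYP71B27, CYP71B28 and CYP71B29, lie within 5 entries on chromosome 1, and CYP71B5 and CYP71B31 within 5 entries elsewhere on chromosome 3. CYP71B27 and CYP51G2 are transcribed pseudogenes in that table. No gene coordinates are given in the array data.

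No P450 gene passed the test in any comparison. Between high light and control, limma's adjusted p was at least 0.534 for each of the 22 genes, and the log2 changes ran from -0.35 to 0.09. Between dark and control each adjusted p was 1, with changes from -0.17 to 0.22. Between high light and dark the adjusted p was at least 0.800, with changes from -0.34 to 0.09. For 12 of the 22, the signal lay below the lower quartile of the array on all 9 arrays. CYP71B6, CYP84A4 and CYP71B28 lay above the array median on all 9.

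**Figure D1:**
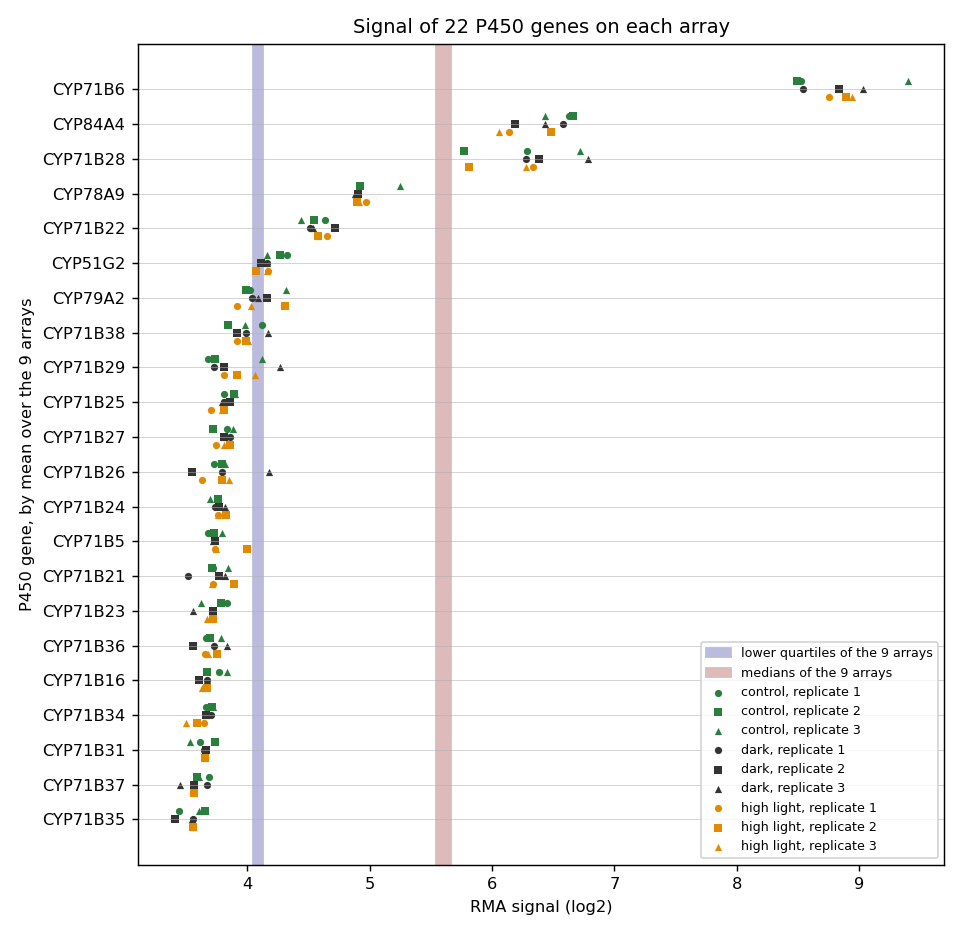
RMA signal (log2, horizontal axis) of each of the 22 P450 genes on each of the 9 arrays, with colours for the groups, symbols for the replicate number and bands for the range of the array quartiles. Only CYP71B6, CYP84A4 and CYP71B28 lie right of the band of medians (5.55 to 5.67), and the 3 colours mix for nearly every gene.

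The values are log2 signals from RMA, a method that corrects the background, makes the arrays' distributions alike and combines each set's probes into 1 value. The lower quartile lay at 4.05 to 4.12 and the median at 5.55 to 5.67 over the 9 arrays. Where a gene sits on this scale depends on its probes as well as its transcript, so signals of different genes do not rank their RNA. Signal above background was not tested. A probe set near the bottom of the scale can therefore hold a transcript that was too scarce to be read, and a small change there bounds the signal and not the transcript.

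CYP71B6 had the highest signals of the CYP71B genes. It encodes an enzyme of indole metabolism that acts on indole-3-acetonitrile in defence. Its signals were 8.52, 8.50 and 9.40 in control, 8.55, 8.84 and 9.04 in dark, and 8.76, 8.89 and 8.94 in high light. Control replicate 3 was the highest array and the other control arrays the lowest, so the control arrays spanned the 6 other arrays. The group means were 8.81 ± 0.51, 8.81 ± 0.25 and 8.87 ± 0.09 (SD, n = 3). The log2 change was 0.06 in high light against control, with a 95% interval from -0.48 to 0.59 (SE 0.24, limma adjusted p = 0.974). Against dark it was also 0.06, and dark against control gave 0.00.

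CYP84A4 showed the lowest p of the 22 genes. It acts in the synthesis of arabidopyrones, phenylpropanoid-derived compounds, and is a relative of the ferulate hydroxylase of lignin synthesis. Its signals were 6.63, 6.66 and 6.43 in control, 6.58, 6.19 and 6.43 in dark, and 6.14, 6.48 and 6.05 in high light. The high light arrays included the 2 lowest of the 9, but high light replicate 2 lay above control replicate 3, so the groups overlapped. The log2 change was -0.35 in high light against control (0.786 of control, 95% interval 0.628 to 0.983, SE 0.14), with an unadjusted p of 0.0380 and a limma adjusted p of 0.534. Same-numbered arrays differed by -0.49, -0.17 and -0.38, so the gene was lower in 3 of 3 pairs. Dark against control gave -0.17 and high light against dark -0.18 (limma adjusted p = 1 and 0.830).

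CYP71B28, of the run on chromosome 1, had the largest spread within groups of the 22 genes when the 3 groups were pooled. No role is assigned to it here. Its signals were 6.29, 5.77 and 6.72 in control, 6.27, 6.38 and 6.79 in dark, and 6.33, 5.81 and 6.27 in high light. The lowest signals, on replicate 2 of control and of high light, stood apart from the other 7 arrays, and all 3 groups overlapped. The spread within groups was 0.36 (pooled SD) and the range of the group means 0.34. The log2 change in high light against dark was -0.34, with a 95% interval from -0.92 to 0.23 (limma adjusted p = 0.813), the lowest lower bound among the 22 genes in the 3 comparisons. Same-numbered arrays differed there by 0.06, -0.58 and -0.51, with an adjusted p of 0.388 when the replicate number was a block.

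**Figure D2:**
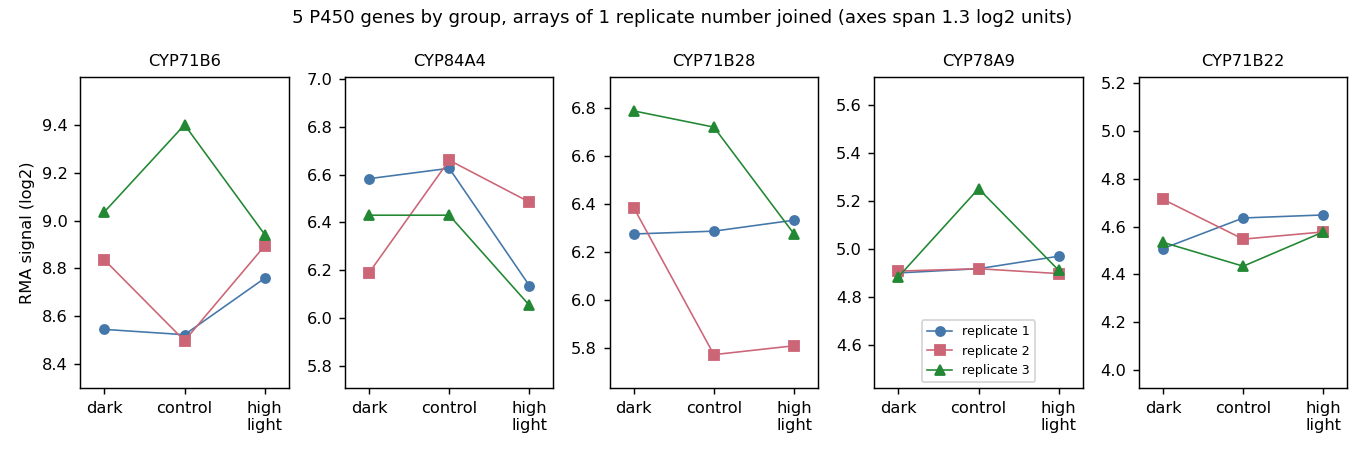
RMA signal (log2, vertical axes, each spanning 1.3 units) of the 5 P450 genes that lay above the lower quartile on all 9 arrays, by group, with lines joining arrays of 1 replicate number. The lines cross or run in different directions for CYP71B6 and CYP71B22, while for CYP84A4 all 3 lines end lower in high light than in control.

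CYP78A9 and CYP71B22 completed the 5 genes that lay above the lower quartile on all arrays. CYP78A9 belongs to a family that promotes the growth of fruits and other organs. Its signals were 4.92, 4.92 and 5.25 in control, 4.90, 4.91 and 4.88 in dark, and 4.97, 4.90 and 4.91 in high light. The 3 dark arrays lay below the 3 control arrays, though 2 of these by 0.02 or less against their same-numbered dark arrays. The log2 change in dark against control was -0.13 (SE 0.10, limma adjusted p = 1). CYP71B22, of the chromosome 3 run, had group means of 4.54 ± 0.10, 4.59 ± 0.11 and 4.60 ± 0.04 in control, dark and high light (SD, n = 3). Its log2 change in high light against control was 0.06 (SE 0.08, limma adjusted p = 0.914).

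The other 2 genes outside CYP71B lay near the lower quartile. CYP79A2 makes phenylacetaldoxime from phenylalanine, a step to benzylglucosinolate. Its signals ran from 3.99 to 4.31 in control, 4.04 to 4.16 in dark and 3.91 to 4.31 in high light, and the log2 changes lay between -0.03 and -0.01. CYP51G2 is a pseudogene copy of the sterol 14-demethylase gene. Its signals were 4.32, 4.27 and 4.16 in control, 4.16, 4.11 and 4.16 in dark, and 4.16, 4.07 and 4.16 in high light. Control replicates 1 and 2 were the highest arrays, and control replicate 3 was level with the others. The log2 changes were -0.12 in high light and -0.10 in dark against control (SE 0.07 each, limma adjusted p = 0.747 and 1).

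The run on chromosome 3 was read mostly at the bottom of the scale. Of its 11 genes, CYP71B22 alone had signals above 4.2 on any array. The other 10 ranged from 3.40, for CYP71B35 in dark replicate 2, to 4.18, for CYP71B26 in dark replicate 3. That last value was the only signal of CYP71B26 above the lower quartile of its array. The medians of the log2 changes over the 11 genes were -0.02 for high light and -0.05 for dark, each against control, and 0.01 between high light and dark. All 95% intervals of these genes lay between -0.42 and 0.39 log2 units.

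**Figure D3:**
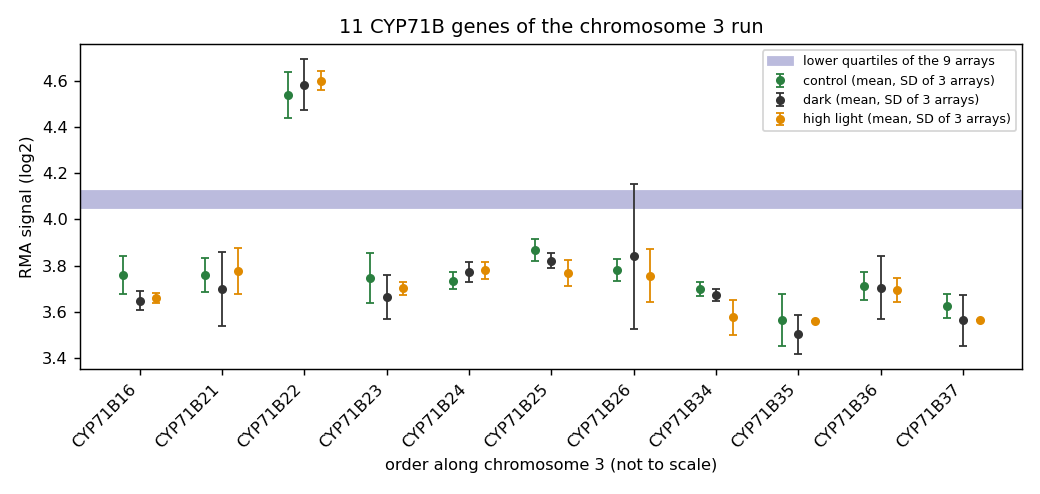
Mean RMA signal (log2, vertical axis, error bars SD of 3 arrays) of the 11 CYP71B genes of the chromosome 3 run in the 3 groups, in chromosome order and not to scale. The means of 10 genes lie below the band of lower quartiles (4.05 to 4.12), and CYP71B22 lies above it.

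CYP71B34 was the gene of this run with the lowest p. Its signals were 3.66, 3.71 and 3.72 in control, 3.70, 3.66 and 3.66 in dark, and 3.64, 3.59 and 3.49 in high light. All 3 high light arrays lay below the other 6, by as little as 0.02. The log2 change was -0.12 against control (SE 0.07, limma adjusted p = 0.695) and -0.10 against dark (SE 0.07, limma adjusted p = 0.800). CYP71B37 also did not overlap between high light and control. Its signals were 3.69, 3.59 and 3.61 in control and 3.56 on each high light array, a log2 change of -0.06 (SE 0.08, limma adjusted p = 0.902). CYP71B25 had a log2 change of -0.10 and CYP71B16 one of -0.10 in high light against control, and CYP71B16 one of -0.11 in dark (limma adjusted p = 0.785, 0.786 and 1). The log2 changes of CYP71B21, CYP71B23, CYP71B24, CYP71B26, CYP71B35 and CYP71B36 lay between -0.08 and 0.07 in the 3 comparisons, and their groups overlapped in each.

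CYP71B29 and CYP71B27 of the chromosome 1 run, and CYP71B5, CYP71B31 and CYP71B38, had signals from 3.53 to 4.27. CYP71B31 has been shown to oxidise the monoterpene linalool, and no role is assigned here to the others. For CYP71B31 the 6 dark and high light arrays all read between 3.64 and 3.66, within the 3.53 to 3.74 of control. CYP71B5 had its highest signal on high light replicate 2, above the 3.67 to 3.79 of the other 8 arrays. Its log2 change in high light was 0.09 against control (SE 0.09, limma adjusted p = 0.863), the highest of the 22 genes in that comparison. The log2 changes of CYP71B27 and CYP71B38 lay between -0.06 and 0.05 in the 3 comparisons.

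In CYP71B29 the arrays of replicate number 3 stood out. Its signals were 3.68, 3.74 and 4.12 in control, 3.73, 3.81 and 4.27 in dark, and 3.81, 3.91 and 4.06 in high light. The 3 arrays numbered 3 were the 3 highest of the 9. CYP71B6 also had its highest array of each group at number 3. When the replicate number was tested beside the groups, a test chosen after these values were seen, CYP71B29, CYP71B28 and CYP71B6 had unadjusted p of 0.0034, 0.0146 and 0.0325. The limma adjusted p were 0.0560, 0.116 and 0.175, so 0 of 22 genes passed where 4.95% of all probe sets did. At an unadjusted p under 0.05 these were 3 of 22, where 22.6% of all probe sets were. By that background the P450 genes were not set apart. For 14 of the 22 genes the pooled SD within groups was above the range of the 3 group means. Of all tested probe sets, 49.2% had such an SD, a smaller share.

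**Figure D4:**
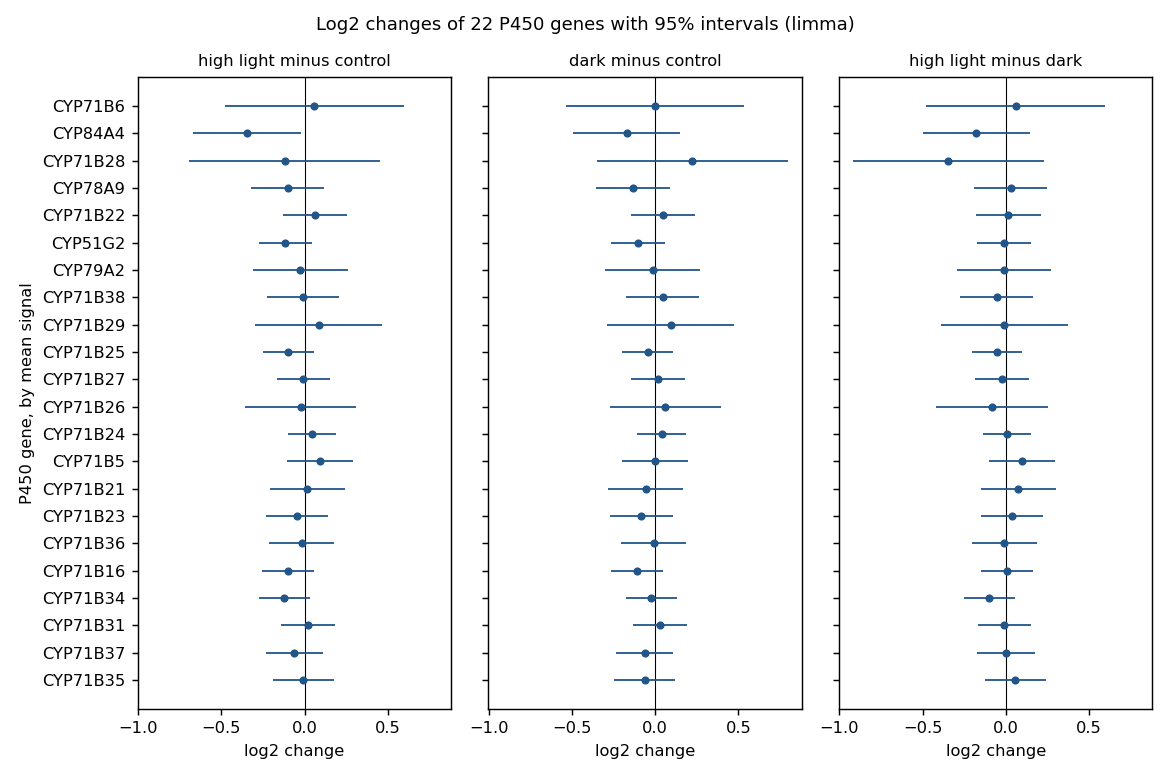
Log2 changes (horizontal axes) of the 22 P450 genes in the 3 comparisons, points with 95% intervals from limma, ordered by mean signal. All intervals lie within 1 log2 unit of 0, and only that of CYP84A4 in high light against control leaves 0 out.

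Set against all 22746 tested probe sets, the counts for the P450 genes were as follows. In high light against control, limma called 0 of 22 at an adjusted p under 0.05, where 0.501% of all probe sets were called. At an unadjusted p under 0.05 it was 1 of 22, CYP84A4, lower in high light, where 8.79% of all probe sets were. Groups did not overlap for 2 of 22, CYP71B34 and CYP71B37, where 11.2% of all probe sets did not overlap. In dark against control, 0 of 22 were called, where 0% of all probe sets were. At an unadjusted p under 0.05 it was 0 of 22, where 2.77% of all were. CYP78A9 was the 1 of 22 without overlap, where 6.34% of all probe sets had none. In high light against dark, 0 of 22 were called and 0 had an unadjusted p under 0.05, where 0.897% and 8.01% of all probe sets did. CYP71B34 was the 1 of 22 without overlap, where 10.3% of all probe sets had none. With so few genes, these shares do not set the P450 genes apart from the rest of the array.

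The same counts were made over the 5687 probe sets with a mean below the lower quartile of means. Of these, 0% were called between high light and control, 0% between dark and control, and 1 (0.0176%) between high light and dark. At an unadjusted p under 0.05 the shares were 1.65%, 0.739% and 1.37%, and groups did not overlap for 6.19%, 6% and 6.3%. The part of low signal in the P450 counts was not tested.

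The intervals say how large a change in signal is still compatible with these arrays. In each comparison, the 95% intervals, not adjusted for their number, lay within 1 log2 unit of 0 for 22 of 22 P450 genes. Of all probe sets, 93.8% did so for high light and 96.1% for dark, each against control, and 93.8% between high light and dark. Within 0.5 log2 units they lay for 19, 20 and 20 of 22 (86.4%, 90.9% and 90.9%), beside 69.8%, 74.9% and 69.6% of all probe sets. The exceptions were CYP71B6 and CYP71B28 in each comparison, and CYP84A4 in high light against control. These intervals are from the fit without the replicate number as a block. In high light against control, the SE of these genes was 0.24, 0.25 and 0.14 in that fit. With the block it was 0.16, 0.15 and 0.14. The median log2 change of the 22 was -0.02, -0.01 and -0.01 in the 3 comparisons, beside -0.03, 0.00 and -0.04 over all tested probe sets.

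**Figure D5:**
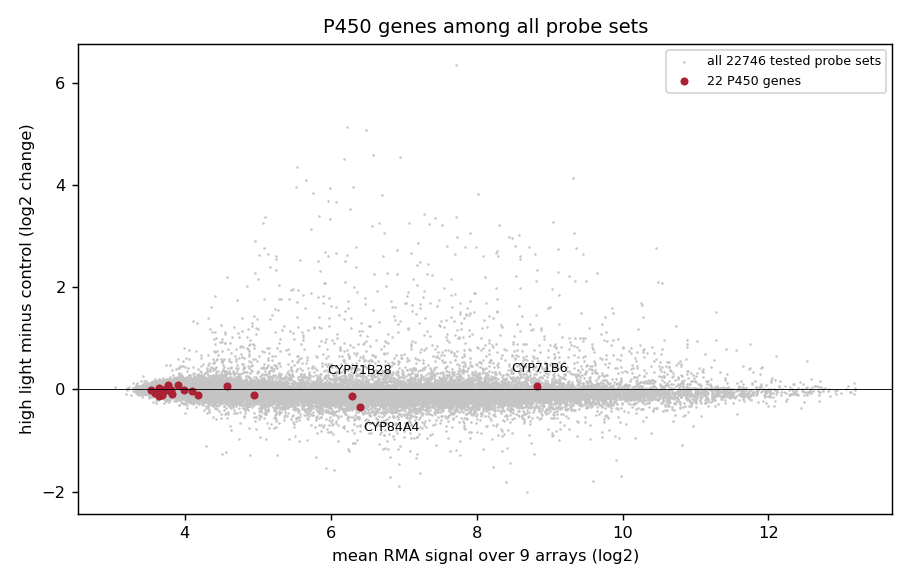
Log2 change in high light against control (vertical axis) against the mean RMA signal over the 9 arrays (log2, horizontal axis), for all 22746 tested probe sets (grey) and the 22 P450 genes (red). The P450 genes lie between -0.35 and 0.09, most of them at the left end of the scale, while other probe sets reach 6.34.

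By role, 5 of the 22 genes stood on lists of P450 pathways. CYP84A4, described above with its role, was not on these lists. The 5 were CYP79A2 for glucosinolates (1 of 11 listed names), CYP71B6 for indole and coumarin defence (1 of 6), CYP51G2 for sterols (1 of 8), CYP71B31 for terpenoids (1 of 10) and CYP78A9 for organ growth (1 of 5). The other 10 lists, which include brassinosteroids, gibberellins, abscisate, cytokinin, jasmonate, phenylpropanoids and carotenoids, had no member. The genes listed there were not analysed here, and the phenylpropanoid list does not hold CYP84A4.

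Genes that work beside P450s were thinly named as well. None of the 9 listed electron donors and scaffold proteins had a named probe set. Of 7 haem synthesis genes, HEMB1, which encodes an early enzyme of that pathway, was measured. Its means were 8.42, 8.42 and 8.43 in control, dark and high light, with log2 changes between 0.00 and 0.01 (limma adjusted p from 0.987 to 1). Glutathione S-transferases, which attach glutathione to compounds that P450s have often oxidised first, were measured for 14 genes. Limma called 0 of 14 in each comparison, beside 0.501%, 0% and 0.897% of all probe sets. The median log2 changes of the 14 were 0.00, -0.01 and 0.00. The counts at an unadjusted p under 0.05 were 1, 0 and 0 of 14, beside 8.79%, 2.77% and 8.01% of all probe sets. With the replicate number as a block, 3 of 14 had an unadjusted p under 0.05 between high light and control, beside 13.9% of all probe sets. All 3 were lower in high light, as were 2010 of the 3169 probe sets with such a p. The 3 genes were GSTL3, GSTU16 and GSTU18, with adjusted p of 0.249, 0.297 and 0.310 in that limma fit. Without the block GSTL3 had the lowest p, with a log2 change of -0.21 in high light against control (SE 0.08, limma adjusted p = 0.512). Its signals did not overlap there, with 11.10, 11.04 and 11.17 in control against 10.97, 10.81 and 10.89 in high light. GSTU16 was the other of 2 of 14 genes without overlap, where 11.2% of all probe sets had none, with a log2 change of -0.22 (SE 0.13, limma adjusted p = 0.747). GSTU18 had one of -0.42 (SE 0.22, limma adjusted p = 0.677), and GSTU22 one of 0.21 (SE 0.09, limma adjusted p = 0.602). GSTU27 varied widely within groups, from 5.18 to 7.46 in control.

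Few markers of cell types could be set beside these values, since 6 of 8 marker lists had no named probe set, dividing cells among them. Of the photosynthetic list, 2 of 6 were measured, the photosystem II antenna gene LHCB4.2 and RCA, the activase of Rubisco. Their mean signal per array was 9.13 to 9.31 in control, 8.41 to 8.70 in dark and 8.45 to 8.71 in high light, so control lay above both other groups. LHCB4.2 was called in high light against control (log2 change -1.17, limma adjusted p = 0.0309). RCA was not called, with a log2 change of -0.17 (SE 0.11, limma adjusted p = 0.777) and groups that overlapped, 11.10, 11.08 and 10.82 in control against 10.67, 11.01 and 10.82 in high light. In dark against control neither LHCB4.2 nor RCA was called, where 0% of all probe sets were. For both genes the dark arrays lay below the control arrays, where 6.34% of all probe sets had no overlap. For RCA the highest dark array was 10.80 and the lowest control array 10.82. The log2 changes there were -1.08 for LHCB4.2 (SE 0.18, limma adjusted p = 0.502) and -0.23 for RCA (SE 0.11). The 2 of 3 root markers measured, PYK10 and EXPA7, had means per array of 4.30 to 4.47, 4.28 to 4.43 and 4.38 to 4.57. The part of these differences in the P450 values was not tested.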

How the data were processed

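The deposited table holds log2 expression per probe set for 9 ATH1 arrays, made by the authors with RMA (affy package), as the submitters' processing notes name them without versions or settings. The base of the logarithm is taken from the range and quartiles of the values. The number of arrays limits the precision, and no 2 arrays held identical values (lowest correlation 0.972). The 64 Affymetrix control sets of 22810 were left out, and 22746 were tested. The annotation lists 1 gene for 13513 of them, several for 503 and none for 8730.

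Comparisons were fitted with limma 3.58.1 in R 4.3.3 (a mean per group over all 9 arrays, eBayes with a constant prior), with Benjamini-Hochberg adjustment over all tested probe sets and a threshold of 0.05. The fit was tested on simulated data. The genes, lists and tests were chosen with earlier results of these data known. Values are given for called genes, for the 10 lowest p of a comparison (the lower of these in ranges), for the highest and lowest signals and for genes with a listed role. The replicate numbers were checked as pairs: the deviations of same-numbered arrays from their group means correlated at 0.261 to 0.515 in high light and control, 0.0124 to 0.632 in dark and control, and -0.0336 to 0.485 in high light and dark. All 3 pairs were thus over 0.1 in the first comparison only. Alternatives covered normalisation, low-signal filters, the variance prior, array weights, the replicate block, left-out arrays, shared probes and the threshold.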

Additional observations from a re-analysis of the deposited data

How the results depend on the processing

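In limma, 0 of 22 P450 genes were called in each comparison under each of 19 alternatives. The stricter threshold of 0.01 is among these and could call no gene, since none passed at 0.05. The lowest adjusted p of any gene was 0.313 for high light and 0.701 for dark, each against control, and 0.387 between high light and dark. The labels name no pairing of the arrays. In the limma fit with the replicate number as a block, the counts were again 0, 0 and 0. Of all 22746 probe sets, 302, 0 and 430 were called in that fit. There CYP84A4 had an adjusted p of 0.332 in high light against control. Leaving out each array gave 0 calls throughout. The median log2 change then ran from -0.07 to 0.01 for high light and -0.04 to 0.00 for dark, each against control, and from -0.02 to 0.01 between high light and dark. Filters on low signal keep fewer genes, and the median of the genes kept was another one. Above the lower quartile of means 7 genes remained, with a median of -0.10 in high light against control. Above the median of means 3 remained, with medians of -0.12 between high light and control and -0.18 between high light and dark. Of 1152 gene values under the alternatives, 98 had another sign than the value reported. These came from median centring, a repeated normalisation, array weights or left-out arrays. The other alternatives keep each log2 change, so their values among the 1152 could not change sign. Leaving out an array likewise does not alter the log2 change of the comparison without its group. CYP84A4 stayed between -0.48 and -0.26 in high light against control. Every gene had 1 probe set, so using every probe set of a gene gave nothing further. No probe-level signals were used, so signal over background limits what can be said of the 12 genes below the lower quartile.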

Other observations

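Several arrays often held the same deposited value of a P450 gene, to within 1e-06. This was so for 18 of 22 genes (81.8%), against 46.1% of all tested probe sets, 68.4% of those with a mean below the lower quartile and 38.7% of the others. CYP71B23 and CYP71B35 each had 4 arrays at 1 value, 3.72 and 3.56, and the 3 high light arrays of CYP71B35 were among its 4. CYP84A4 had 6.43 on both control replicate 3 and dark replicate 3. The pooled SD within groups of these genes includes such equal values.

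P450-like probe sets outside the naming rule were read as well, chosen after the annotation was seen. CYP71B30P, a pseudogene that lies between CYP71B5 and CYP71B31 in locus order, had signals of 3.62, 3.51 and 3.66 in control, 3.64, 3.61 and 3.64 in dark, and 3.73, 3.77 and 3.75 in high light. The high light arrays were the 3 highest. Of all probe sets, 11.2% had no overlap between high light and control, and 10.3% none between high light and dark. Among probe sets with a mean below the lower quartile of means, the shares were 6.19% and 6.3%. The log2 change of CYP71B30P was 0.15 in high light against control (SE 0.07, limma adjusted p = 0.553). A probe set shared by CYP71B19 and CYP71B20, whose genes it cannot separate, had a log2 change of 0.07 in the same comparison (limma adjusted p = 0.914). CYP718 had one of 0.16 (SE 0.13, limma adjusted p = 0.845). A probe set shared by AT1G58265 and CYP79C2 had one of 0.03 (SE 0.10, limma adjusted p = 0.974).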
